A study of Homo sapiens with 28 samples.

Results

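The SR protein genes SRSF1, SRSF2, SRSF3, SRSF4, SRSF5, SRSF6, SRSF7, SRSF9, SRSF10 and SRSF11 were followed through 28 libraries of the human breast cancer line MDA-MB-453. They were taken by symbol, and all 10 were present among 16482 genes in the table of all reads and among 13029 genes in the table of T>C reads. The tables name them by Ensembl gene: SRSF1 is ENSG00000136450, SRSF2 is ENSG00000161547, SRSF3 is ENSG00000112081, SRSF4 is ENSG00000116350, SRSF5 is ENSG00000100650, SRSF6 is ENSG00000124193, SRSF7 is ENSG00000115875, SRSF9 is ENSG00000111786, SRSF10 is ENSG00000188529 and SRSF11 is ENSG00000116754. The cells were given JQ1-VHL or IBET151-VHL, JQ1 or IBET151, or the solvent DMSO, for 3 h. JQ1 and IBET151 are small molecules that occupy BET bromodomains, and the names JQ1-VHL and IBET151-VHL join these inhibitors to VHL, a substrate receptor of a ubiquitin ligase that degrader molecules recruit. Doses and structures are not given in the sources used here. All groups, DMSO included, received 0.1 mM 4-thiouridine (4sU) for the last 60 min. 4sU enters newly made RNA and, after alkylation, is read as C in place of T, so that a T>C read marks RNA made during the labelling. A nuclear pellet and a cytoplasmic supernatant were parted with digitonin, and each treatment and fraction gave 3 libraries, except 2 for IBET151 in each fraction. All libraries came from 1 cell line, and the labels do not say whether replicates were separate cultures, so p-values measure the spread between these libraries.

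SR proteins bind exonic enhancers through RNA recognition motifs and recruit the splicing machinery through a domain rich in arginine and serine, which SRPK and CLK kinases phosphorylate. They gather in nuclear speckles. SRSF1, SRSF3 and SRSF7 also shuttle to the cytoplasm and act as adaptors of the mRNA export receptor NXF1, whereas SRSF2 (SC35) is the classical speckle protein. Many SR genes carry poison exons, whose inclusion directs the transcript to nonsense-mediated decay and keeps the protein's level in check, so part of their RNA can stay in the nucleus or be short-lived.

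The nuclear libraries held 17851589 to 38658448 reads and the cytoplasmic ones 30647584 to 68475299. The 10 SR genes took 44248 to 97617 reads of a nuclear library and 77683 to 155858 of a cytoplasmic one, of which 618 to 9290 and 46 to 804 were T>C reads. Values are the deposited reads scaled to ERCC spike-in RNA, which was added per mass of RNA, not per cell. 1 read was worth 0.670 to 2.24 units in the nucleus and 0.374 to 0.951 in the cytoplasm. Some libraries stood apart. The nuclear replicates 1 of JQ1-VHL, IBET151-VHL, JQ1 and DMSO (library numbers 927 to 937) had the lowest level of their group in each of the 10 SR genes. The nuclear replicates 3 of JQ1 and DMSO (numbers 963 to 973) had T>C shares over all genes of 1.94% and 2.25%, against 5.69% to 8.02% in the other JQ1 and DMSO nuclei. Of 8 luminal breast markers all were read in every library, whereas the basal keratins KRT5 and KRT14, the immune genes PTPRC and LYZ and the stromal COL1A2, COL3A1 and DCN stood at or near 0. Of the 4 stromal markers COL1A1 alone was plainly present, at 1170.3 to 6655 units. The basal TP63 had 45.8 to 195 units in nuclei and 7.85 to 28.2 in cytoplasm, and the endothelial VWF 17.6 to 76.5 and 8.86 to 35.5, both read in every library, whereas the endothelial CDH5 had 2.01 to 30.2 and 0 to 1.59. The nuclear RNA MALAT1 stood at 15747 to 65876 units in nuclear and 1181 to 4769 in cytoplasmic libraries.

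Promoters are shown first for the members on which the results turn: SRSF1 and SRSF9, whose nuclear T>C reads stood lowest against DMSO in IBET151-VHL, SRSF6, the member called lower in cytoplasmic reads of 3 drugs, and SRSF3, the only member with a CCAAT box. They are RefSeq sequences of 250 bases before to 50 after the annotated start, given on the gene's strand in a newer build than that of the read tables. Capitals mark matches, on either strand, to CACGTG (E-box), GGGCGG (GC box), TGACGT (core of a cAMP response element), CCGGAAG (ETS), GCCATNTT (YY1), TATAAA or CCAAT, which do not overlap here.
SRSF1 promoter, chr17:58007197-58007496 (- strand, GRCh38.p14): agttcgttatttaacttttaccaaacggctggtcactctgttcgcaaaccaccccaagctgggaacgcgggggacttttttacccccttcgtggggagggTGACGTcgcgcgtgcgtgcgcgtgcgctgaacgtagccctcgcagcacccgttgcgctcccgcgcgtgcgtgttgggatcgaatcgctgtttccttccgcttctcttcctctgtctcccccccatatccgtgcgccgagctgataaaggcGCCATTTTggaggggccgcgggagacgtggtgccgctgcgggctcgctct
SRSF9 promoter, chr12:120469699-120469998 (- strand, GRCh38.p14): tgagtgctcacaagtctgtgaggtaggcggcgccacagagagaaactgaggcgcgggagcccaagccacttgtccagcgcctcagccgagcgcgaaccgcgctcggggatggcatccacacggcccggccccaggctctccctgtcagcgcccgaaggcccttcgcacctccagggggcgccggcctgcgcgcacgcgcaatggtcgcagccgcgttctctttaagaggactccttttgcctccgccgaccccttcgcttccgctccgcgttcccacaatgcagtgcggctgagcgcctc
SRSF6 promoter, chr20:43457646-43457945 (+ strand, GRCh38.p14): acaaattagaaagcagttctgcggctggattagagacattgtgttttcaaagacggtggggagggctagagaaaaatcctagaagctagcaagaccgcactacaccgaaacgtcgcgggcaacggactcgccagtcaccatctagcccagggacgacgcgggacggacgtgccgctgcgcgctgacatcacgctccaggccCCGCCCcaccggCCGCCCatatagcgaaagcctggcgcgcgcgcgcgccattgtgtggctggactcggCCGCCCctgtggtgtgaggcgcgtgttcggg
SRSF3 promoter, chr6:36594112-36594411 (+ strand, GRCh38.p14): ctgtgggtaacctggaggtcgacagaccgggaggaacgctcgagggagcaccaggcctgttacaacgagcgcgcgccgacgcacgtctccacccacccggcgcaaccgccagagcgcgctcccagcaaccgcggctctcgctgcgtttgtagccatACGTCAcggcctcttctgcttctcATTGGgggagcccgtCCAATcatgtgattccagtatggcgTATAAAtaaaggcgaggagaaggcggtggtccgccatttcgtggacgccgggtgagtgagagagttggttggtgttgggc
RefSeq gave 11 promoters of 9 members, 2 each for SRSF7 and SRSF11, and none was matched for SRSF2. The E-box was in 0 of these, against 7.26% of all 35116 promoters. The GC box was in 5 (SRSF4, SRSF6, both of SRSF7 and 1 of SRSF11), against 45.0% of all. TGACGT was in 3 (SRSF1, SRSF3 and SRSF5), against 7.98%. CCGGAAG was in 2 (SRSF4 and SRSF5), against 10.3%, and GCCATNTT in 1 (SRSF1), against 6.58%. TATAAA was in 3 (SRSF3, 1 of SRSF7 and 1 of SRSF11), against 11.5%, and CCAAT in 1 (SRSF3, at 2 places), against 34.6%. The SRSF9 promoter held none of the 7 motifs. These motifs were chosen with the sequences in view, and a match is a run of letters, not a shown binding site.

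The first question was whether the steady pool of SR mRNA in the cytoplasm changed within 3 h. It moved little. SRSF6 (SRp55), a regulator of alternative exons, was the member that fell most often, and SRSF5 (SRp40) fell in JQ1-VHL. Of the 10 members the number that fell was 2 in JQ1-VHL, 1 in IBET151-VHL, 1 in JQ1 and 0 in IBET151, and 0 rose, at an adjusted p under 0.05 (limma on log2(value + 1), Benjamini-Hochberg over 12470 genes). In IBET151 2 members reached an unadjusted p under 0.05, and edgeR and DESeq2 called 0. Over all genes tested the share that fell was 12.5% in JQ1-VHL, 15.4% in IBET151-VHL, 4.00% in JQ1 and 1.62% in IBET151, so the members' counts lie near the background. The members' median log2 difference was -0.30, -0.20, -0.21 and -0.087 in the same order of drugs, beside -0.17, -0.15, -0.13 and 0.0023 over all genes. All comparisons with DMSO share its 3 libraries. In bulk RNA, less RNA per cell and fewer cells with that RNA cannot be told apart.

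SRSF6 had 4198, 3682 and 4059 units in IBET151-VHL, 3404, 3445 and 4011 in JQ1-VHL, 4398, 3988 and 3766 in JQ1 and 4366 and 4512 in IBET151 cytoplasm, against 5857, 6848 and 5496 in DMSO cytoplasm. Every drug library lay below every DMSO library. The difference from DMSO was -0.74 ± 0.13 (SE, adjusted p = 0.00189) in JQ1-VHL, a value 1.67-fold lower, -0.60 ± 0.13 (SE, adjusted p = 0.00548) in IBET151-VHL and -0.58 ± 0.13 (SE, adjusted p = 0.0223) in JQ1. In IBET151 it was -0.44 ± 0.15 (SE, adjusted p = 0.176), with a 95% interval of -0.77 to -0.12, and it passed there under median-ratio scaling (adjusted p = 0.0295, over the alternatives 0.0114 to 0.841). The JQ1-VHL call was kept in all 19 alternatives, the IBET151-VHL call in 18 and the JQ1 call in 14 of 19. Without replicate 2 or 3 of JQ1 or replicate 2 of DMSO, the adjusted p in JQ1 was 0.0841, 0.0952 and 0.0587, within a range over the alternatives of 0.00118 to 0.257.

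SRSF5 had 5184, 7098 and 6182 units in JQ1-VHL and 6759.9, 7269.6 and 5924 in IBET151-VHL, 8653, 9899.8 and 7409 in JQ1 and 9773 and 8116 in IBET151, against 9177, 11348 and 7417 in DMSO. The libraries of both VHL compounds lay below all DMSO libraries, whereas those of the parent inhibitors overlapped them. The difference was -0.59 ± 0.18 (SE, adjusted p = 0.0429) in JQ1-VHL and -0.47 ± 0.18 (SE, adjusted p = 0.101) in IBET151-VHL. The JQ1-VHL call was lost under 9 of 19 alternatives, among them the omission of replicate 1 or 3 of JQ1-VHL or replicate 1 or 2 of DMSO, with adjusted p-values of 6.75e-04 to 0.217 over the alternatives.

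SRSF4 (SRp75) and SRSF11 (p54), a protein that contacts U2AF in the recognition of splice sites, were below 0 in every drug without passing. SRSF4 had 1078, 1027 and 910.4 units in IBET151-VHL, against 1412, 2207 and 1242 in DMSO, a difference of -0.65 ± 0.22 (SE, adjusted p = 0.0561). SRSF11 had 8192, 7399 and 5342 units in IBET151-VHL, against 11713, 12035 and 6667 in DMSO, a difference of -0.51 ± 0.26 (SE, adjusted p = 0.243), and replicate 3 of each was the lowest of its group. Same-numbered libraries of DMSO and of the 3 drugs with 3 replicates deviated together in all reads, and with replicate number as a block 2 members fell in JQ1 (SRSF6 and SRSF11), 3 in JQ1-VHL (with SRSF5) and 4 in IBET151-VHL (with SRSF4 and SRSF5), where over all genes 6.38%, 16.2% and 18.5% fell. Without DMSO replicate 3, 4 members were called in IBET151-VHL also unpaired.

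The shuttling proteins SRSF1, SRSF3 and SRSF7 were not called in cytoplasmic reads of any drug. SRSF1, which also counters splicing silencers and aids export, had 6829, 7952 and 7726 units in IBET151-VHL, 7128, 7827 and 8889 in JQ1-VHL, 8702, 8014 and 6184 in JQ1 and 9166 and 8900.0 in IBET151, against 2748, 10867 and 6975 in DMSO. DMSO replicate 1 was the lowest of all 14 cytoplasmic libraries and DMSO replicate 2 the highest, so the drug libraries lay between the DMSO values. The positive differences of 0.34 to 0.61 had standard errors of 0.34 to 0.38. SRSF2 had differences of 0.18 to 0.40 and its DMSO replicate 1, at 6484 units, was likewise the lowest of 14. SRSF3, SRSF7, SRSF9 and SRSF10 differed from DMSO by -0.35 to 0.19.

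Within the runs of library numbers that hold both groups, the members' median difference from DMSO varied more than between drugs. In JQ1-VHL it was -0.21 among numbers 927 to 937 and -0.58 among 939 to 949, in IBET151-VHL 0.038 and -0.59, and in JQ1 0.071, -0.55 and, among 963 to 973, -0.29. IBET151 had -0.43 in the 1 run it shares with DMSO. SRSF6 was below 0 in each of these 8 within-run comparisons.

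**Figure D1:**
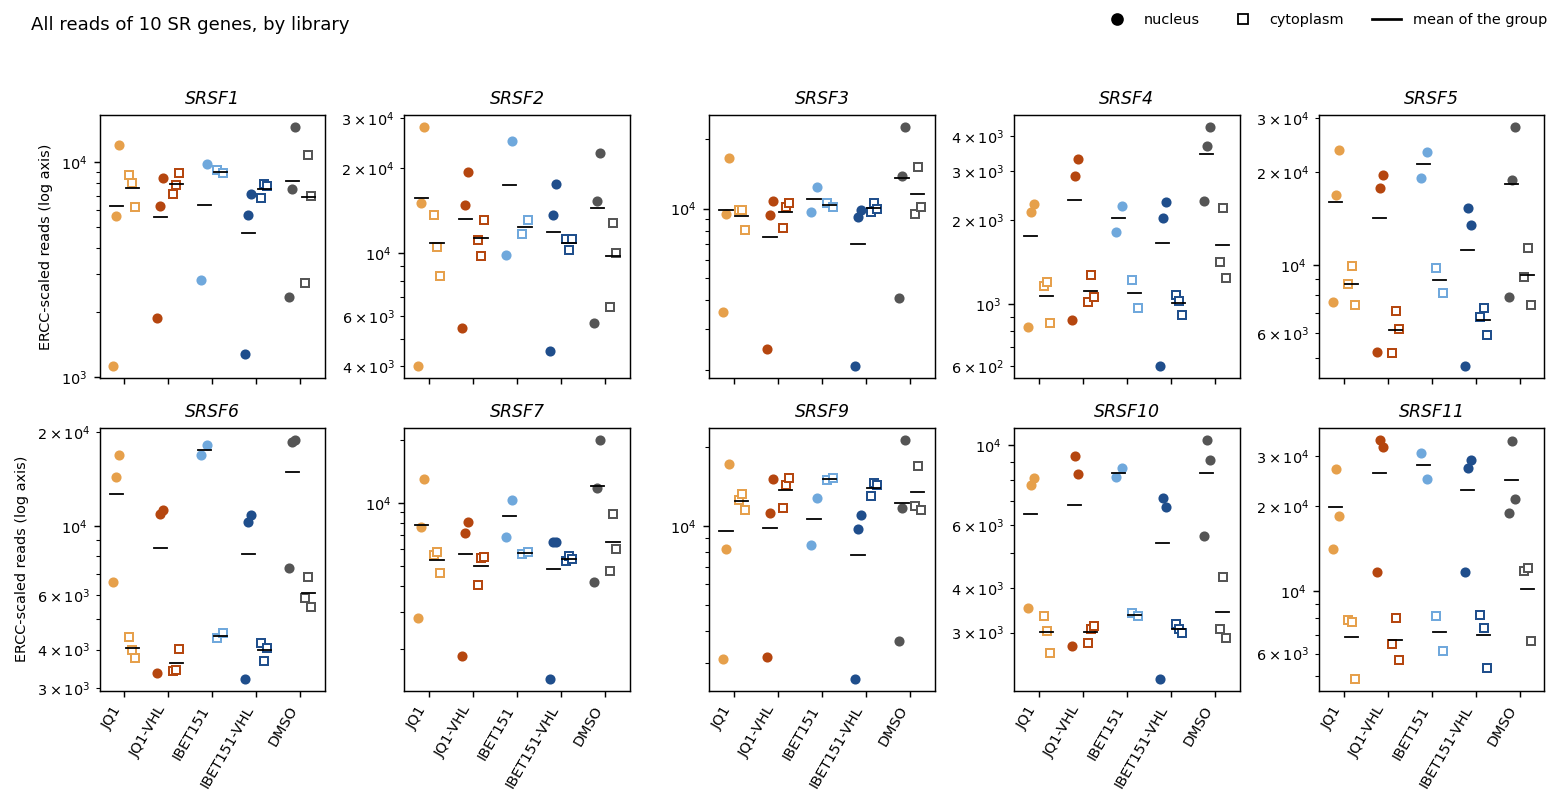
All reads of the 10 SR genes in each library (ERCC-scaled reads, log axis, 1 panel per gene with its own range), by treatment, with filled circles for the nucleus, open squares for the cytoplasm and lines at the arithmetic mean of a group. In SRSF6 every cytoplasmic drug library lies below the DMSO libraries, which start at 5496 units, and the lowest nuclear point of most panels belongs to a replicate 1.

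In the nucleus the spread between replicates was wide. No member's level of all reads passed in the main fit, whereas several fell with replicate number as a block or with weights per library. SRSF6 had 3359, 10945 and 11231 units in JQ1-VHL and 3222, 10292 and 10866 in IBET151-VHL, 6612, 14409.7 and 16928 in JQ1 and 16949 and 18192 in IBET151, against 7319, 18561 and 18961 in DMSO nuclei. Replicate 1 was the lowest of its group in each of these, and every drug overlapped DMSO. The export adaptor SRSF7 had the lowest difference, with 1448, 6472 and 6529 units in IBET151-VHL, against 4196, 11765 and 19997 in DMSO, a difference of -1.34 ± 0.80 (SE, adjusted p = 0.407). SRSF4 followed with 599, 2034 and 2315 units in IBET151-VHL, all below the DMSO values of 2338, 3667 and 4311, and a difference of -1.24 ± 0.75 (SE, adjusted p = 0.418). In the main fit limma called 0 of 10 members in any drug, 0 at an unadjusted p under 0.05, and edgeR and DESeq2 called 0 too. With weights per library limma called SRSF4 lower in JQ1 (-0.78, adjusted p = 2.28e-08), IBET151-VHL (-0.85, adjusted p = 3.02e-04) and IBET151 (-0.86, adjusted p = 0.0103). It also called SRSF3, SRSF6 and SRSF7 lower in JQ1 and both VHL compounds. The share of all genes called with these weights is not given. The shares that follow are of the main fit. Of 14417 genes tested the share that fell was 1.07% in JQ1-VHL, 3.66% in IBET151-VHL, 0.0486% in JQ1 and 0.00694% in IBET151.

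The members' nuclear median was -0.45 in JQ1-VHL, -0.78 in IBET151-VHL, -0.38 in JQ1 and 0.075 in IBET151, beside -0.48, -0.71, -0.43 and 0.054 over all genes, so the members lay close to the bulk of genes. Same-numbered nuclear libraries of these drugs and DMSO, IBET151 aside, deviated together too, and the replicate block made calls that the unpaired fit did not. With it 1 member fell in JQ1 (SRSF4), 3 in JQ1-VHL (SRSF3, SRSF6 and SRSF7) and 7 in IBET151-VHL (SRSF1, SRSF3, SRSF4, SRSF5, SRSF6, SRSF7 and SRSF10), where over all genes 9.54%, 23.4% and 43.7% fell. Within library numbers 927 to 937 and 939 to 949 the members' median in IBET151-VHL was -0.93 and -0.48, with 10 of 10 members below 0 in each. Under median-ratio scaling, which sets the median gene near 0, 1 member fell, SRSF4, in JQ1 (-0.62) and in IBET151 (-0.77), with 2.26% and 2.22% of all genes.

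**Figure D2:**
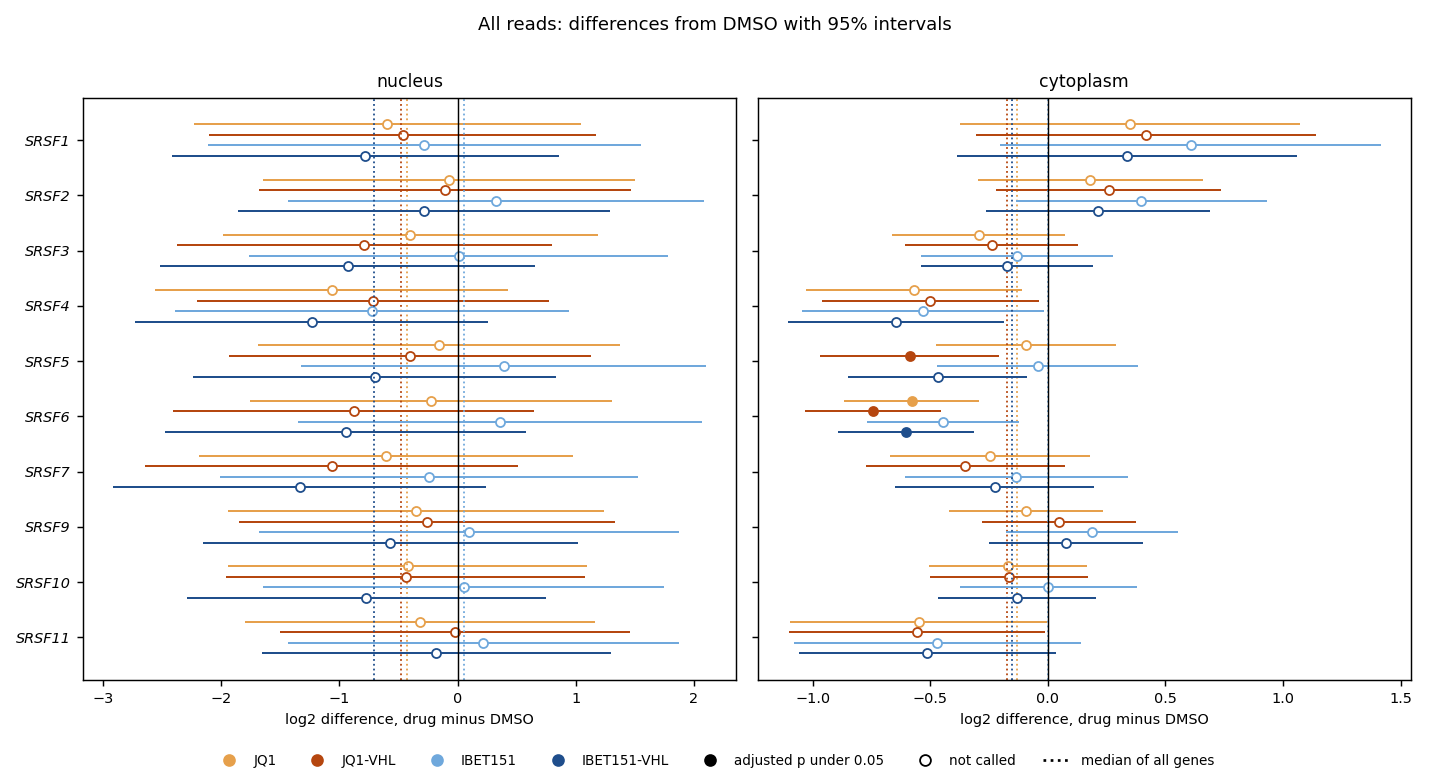
Log2 differences of all reads from DMSO for each SR gene and drug, with 95% intervals, in the nucleus and the cytoplasm, filled where the adjusted p was under 0.05, dotted lines at the median of all genes. Nuclear intervals span 0 for all 10 genes, and the filled cytoplasmic points are SRSF6 in both VHL compounds and JQ1 and SRSF5 in JQ1-VHL.

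Set against the cytoplasm, DMSO nuclei were higher in SRSF10, a regulator of splicing in stress and the cell cycle, and in 0 others by the threshold, though under median-ratio scaling SRSF10 did not pass. SRSF10 had 5594, 10368 and 9116 units in DMSO nuclei, against 3069.5, 4277 and 2901 in DMSO cytoplasm, with no overlap, and a difference of 1.26 ± 0.53 (SE, adjusted p = 0.0453). SRSF11 had 1.28 ± 0.55 (SE, adjusted p = 0.0508), SRSF6 1.18 ± 0.56 (SE, adjusted p = 0.0732) and SRSF4 1.08 ± 0.53 (SE, adjusted p = 0.0870), whereas SRSF9 (-0.45) and SRSF3 (-0.059) lay below 0 without passing. Over all genes 47.9% were called higher in the nucleus, and the median of all genes was 1.26, above the members' median of 0.73. Over the 6300 genes that passed the cytoplasmic T>C filter, as the members did, the median was 0.84. Of these, 2135 were called higher and 47 lower. The order depends on the scaling. With the replicate block 4 members were higher in the nucleus (SRSF4, SRSF6, SRSF10 and SRSF11), with 55.3% of all genes. Under median-ratio scaling, which moved the median of all genes to 0.17, 0 members were higher and 4 were lower (SRSF1, SRSF2, SRSF3 and SRSF9), beside 28.8% of all genes higher and 26.1% lower. Omitting replicate 2 or 3 of the DMSO nuclei, or 1 or 3 of the DMSO cytoplasm, left 0 members called, as did omitting numbers 963 to 973, and omitting nuclear replicate 1 gave 4. edgeR called 3 and DESeq2 4, and the share of all genes that they called is not given. Their counts are therefore not set against a background.

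In the cytoplasm the share of T>C reads among SR gene reads was lowest in the VHL compounds. The share of T>C reads among the reads of all 10 members together was 0.0666% ± 0.00451 in JQ1-VHL, 0.0512% ± 0.0137 in IBET151-VHL, 0.327% ± 0.0688 in JQ1 and 0.374% ± 0.102 in IBET151, against 0.599% ± 0.0540 in DMSO (SD, n = 3 libraries, n = 2 for IBET151). Libraries of the 3 states did not overlap: the VHL compounds lay at 0.0405% to 0.0718%, the parent inhibitors at 0.253% to 0.446% and DMSO at 0.541% to 0.648%. T>C reads of all 10 members fell in both VHL compounds, and of 3 members in JQ1. SRSF1, SRSF4, SRSF5, SRSF9, SRSF10 and SRSF11 passed the minimum of 5 T>C units only through libraries of DMSO or the parent inhibitors. Their libraries of the VHL compounds held at most 4.53 units. In IBET151 limma, edgeR and DESeq2 called 0, and 0 reached an unadjusted p under 0.05. The background was high: of 6300 genes tested the share that fell was 82.8% in JQ1-VHL, 88.3% in IBET151-VHL, 20.1% in JQ1 and 6.76% in IBET151. The members' median was -3.18, -3.39, -1.02 and -0.75 in these comparisons, beside -2.42, -2.89, -0.97 and -0.60 over all genes. Differences are on the log2(value + 1) scale, which understates changes of genes with few T>C reads, and the T>C share without 4sU was not measured in these libraries.

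Among the export adaptors, SRSF3 kept countable T>C reads in every library. It had 10.1, 19.0 and 4.77 T>C units in IBET151-VHL, 16.1, 4.53 and 10.4 in JQ1-VHL, 63.0, 65.9 and 67.7 in JQ1 and 51.4 and 94.7 in IBET151, against 122, 173 and 114 in DMSO. The 3 states were again stepped without overlap, and the difference was -3.72 ± 0.47 (SE, adjusted p = 2.78e-07) in JQ1-VHL and -3.64 ± 0.47 (SE, adjusted p = 1.04e-07) in IBET151-VHL. SRSF7 fell by a like amount, to 4.69, 4.53 and 6.68 T>C units in JQ1-VHL and 4.71, 7.78 and 7.16 in IBET151-VHL, against 46.7, 66.7 and 55.4 in DMSO.

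SRSF1 had the lowest difference from DMSO in JQ1. It had 0, 1 and 0 T>C reads in the JQ1-VHL libraries, 1, 2 and 0 in IBET151-VHL, 2, 4 and 1 in JQ1 and 6 and 12 in IBET151, against 19, 16 and 36 in DMSO. As shares these were 0.0196%, 0.0396% and 0.00604% in JQ1 and 0.0623% and 0.123% in IBET151, against 0.557%, 0.124% and 0.267% in DMSO, and DMSO replicate 1, high in share, had only 3414 SRSF1 reads. JQ1 libraries lay below the IBET151 and DMSO libraries without overlap. The JQ1 difference was -2.74 ± 0.62 (SE, adjusted p = 0.00367) in T>C reads and -3.66 ± 0.94 (SE, adjusted p = 0.0345) in T>C share. The share call was lost when any 1 of 5 libraries (JQ1 replicates 1 and 3, DMSO replicates 1, 2 and 3) was left out, with adjusted p-values of 0.00362 to 0.301 over the alternatives. IBET151 minus JQ1 was 1.84 ± 0.70 (SE, adjusted p = 0.625). Pooled over libraries, the share in JQ1-VHL was 0.0134 (95% interval 0.000335 to 0.0772) times that in DMSO, from a single T>C read, and in IBET151-VHL 0.0389 (95% interval 0.00784 to 0.118) times, from 3. Such intervals are exact and cover counting error only, here and below, and reads are not independent molecules. In the 3 libraries with 0 T>C reads of SRSF1 the depth allowed shares of up to 0.0232% to 0.0282%.

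SRSF10 and SRSF11 also fell in JQ1. SRSF10 had 4.26, 12.7 and 5.98 T>C units in JQ1, against 41.1, 38.8 and 14.5 in DMSO, a difference of -1.90 ± 0.60 (SE, adjusted p = 0.0258) that was called in 11 of 19 alternatives (adjusted p 0.00192 to 0.504). SRSF11 had 5.11, 6.35 and 0 in JQ1, against 16.1, 16.0 and 16.0 in DMSO, a difference of -2.26 ± 0.70 (SE, adjusted p = 0.0248), called in 8 of 18 (adjusted p 0.00307 to 0.498). Without numbers 963 to 973, which hold replicate 3 of both groups, 0 members were called in JQ1 (adjusted p 0.0608 for SRSF1), and the direction of these 3 members stayed negative. Without JQ1 replicate 3, or without DMSO replicate 1 or 2, 1 member was called.

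SRSF2, SRSF6, SRSF4, SRSF5 and SRSF9, like SRSF3 and SRSF7, were called lower by limma in both VHL compounds and in neither parent. Under alternatives SRSF6 was called in JQ1 with a pseudocount of 5 (adjusted p = 0.0143), with only the groups compared (0.0166) and by DESeq2 (0.0291). SRSF7 was called in JQ1 by the same alternatives (0.0215, 0.0364 and 0.0488). SRSF3 was called there with a pseudocount of 5 (0.0294) and with only the groups compared (0.012). SRSF6 had 4.69, 9.06 and 13.4 T>C units in JQ1-VHL and 3.36, 5.19 and 3.58 in IBET151-VHL, against 76.5, 101 and 74.5 in DMSO, a difference in IBET151-VHL of -4.08 ± 0.44 (SE, adjusted p = 7.26e-09). SRSF2 had 9.39, 16.3 and 14.9 in JQ1-VHL and 6.05, 7.78 and 4.77 in IBET151-VHL, against 83.7, 83.6 and 76.6 in DMSO. Both genes thus kept a few T>C reads in every library of the VHL compounds. SRSF9, a shorter SR protein that binds like SRSF1, had 0, 2 and 1 T>C reads in JQ1-VHL and 0, 3 and 0 in IBET151-VHL, against 17, 24 and 25 in DMSO. Its pooled share was 0.0482 (95% interval 0.00970 to 0.147) times that of DMSO in JQ1-VHL and 0.0430 (95% interval 0.00865 to 0.131) times in IBET151-VHL. SRSF5 had 1, 2 and 0 T>C reads in JQ1-VHL and 1, 0 and 0 in IBET151-VHL, against 10, 14 and 36 in DMSO. The ratio of its pooled shares was 0.0820 (95% interval 0.0164 to 0.251) in JQ1-VHL and 0.0230 (95% interval 0.000573 to 0.133) in IBET151-VHL. For SRSF4, with 3, 0 and 0 T>C reads in IBET151-VHL, against 10, 27 and 28 in DMSO, it was 0.0724 (95% interval 0.0145 to 0.221).

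The direction of the cytoplasmic T>C differences from DMSO stood under median-ratio scaling for all 10 members in the VHL compounds, but that scaling removed most of the shared fall, and 3 members (SRSF1, SRSF3 and SRSF10) were then called in JQ1-VHL and 1 (SRSF6) in IBET151-VHL, where 19.1% and 36.8% of all genes fell. Under it the median of all genes was -0.86 and -1.23. The T>C share of a gene's own reads does not depend on the scaling between libraries. In it all 10 members fell in both VHL compounds, with a median of -3.09 in JQ1-VHL (all genes -2.66) and -3.73 in IBET151-VHL (all genes -3.39), where 73.9% and 83.6% of 6299 genes fell. By share 1 fell in JQ1 (2.97% of all) and 0 in IBET151 (0.429% of all), where limma found 0 at an unadjusted p under 0.05. Within library numbers 927 to 937 and 939 to 949 the members' median T>C difference was -3.12 and -3.14 in JQ1-VHL and -3.28 and -3.23 in IBET151-VHL, with 10 of 10 members below 0 in each.

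**Figure D3:**
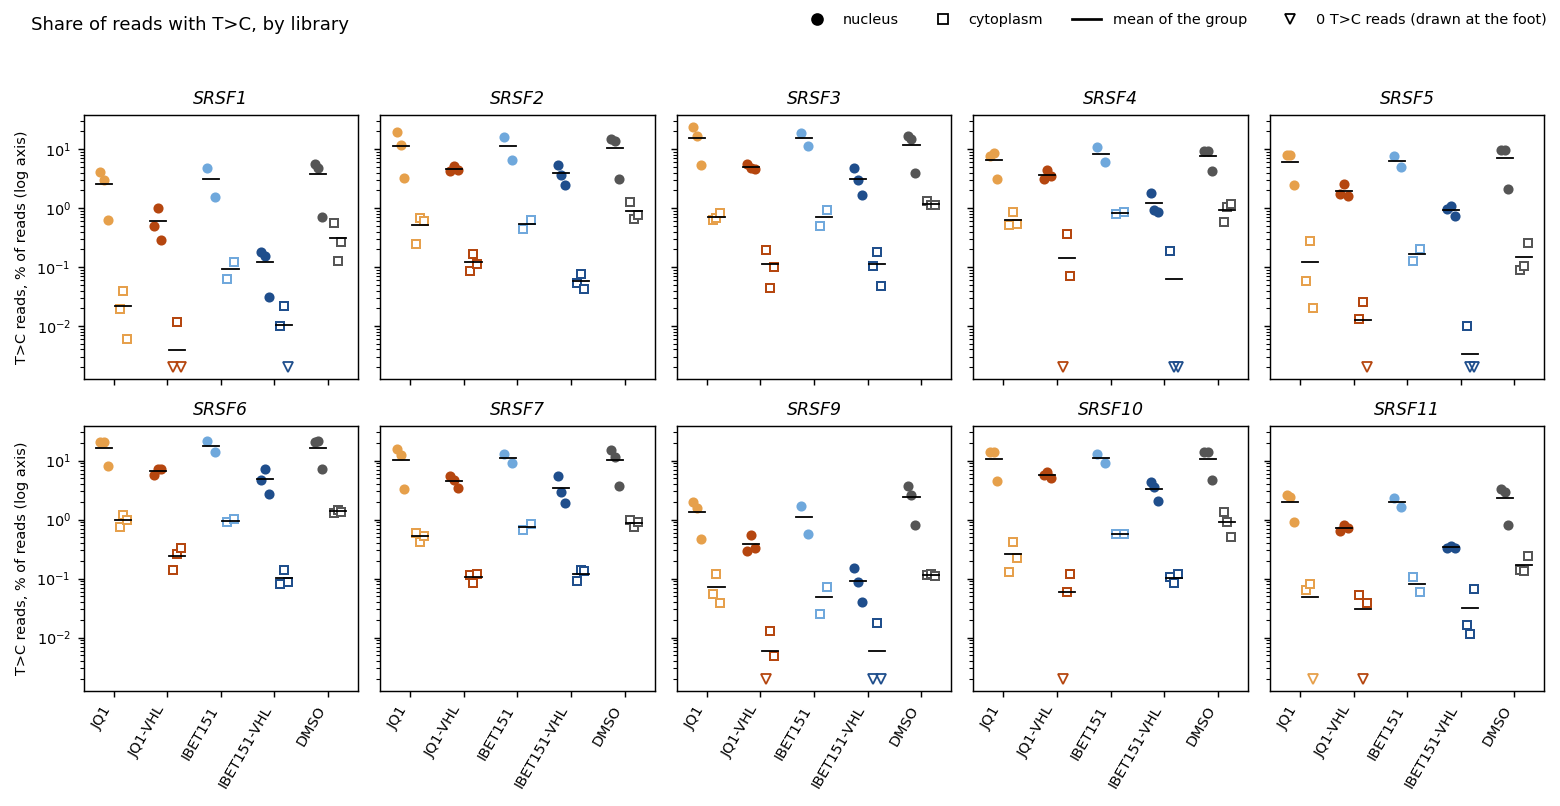
T>C reads as a percentage of each SR gene's reads in every library (log axis), by treatment, with filled circles for the nucleus, open squares for the cytoplasm, open triangles at the foot for libraries with 0 T>C reads and lines at the arithmetic mean of a group. Cytoplasmic shares of the VHL compounds lie below those of DMSO in every panel, and SRSF9 lies at 0.0407% to 0.148% in IBET151-VHL nuclei, against 0.816% to 3.66% in DMSO nuclei.

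In the nucleus T>C reads of all 10 members fell in IBET151-VHL and of 8 in JQ1-VHL (not SRSF2 and SRSF10) under the deposited ERCC scaling, whereas under median-ratio scaling SRSF2 rose in both and only SRSF1, SRSF4 and SRSF9 fell, in IBET151-VHL. In JQ1-VHL 3 members were called without JQ1-VHL replicate 1 and 2 without DMSO replicate 2. In the parent inhibitors 0 of 10 were called by limma, 0 at an unadjusted p under 0.05 and 0 by edgeR or DESeq2. Of 12059 genes tested the share that fell, under the ERCC scaling, was 60.5% in JQ1-VHL, 83.9% in IBET151-VHL, 2.29% in JQ1 and 0.987% in IBET151. The members' median was -2.75 in IBET151-VHL and -1.87 in JQ1-VHL, beside -3.12 and -1.92 over all genes, and -0.46 in JQ1 and 0.21 in IBET151, beside -0.67 and -0.069.

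SRSF1 had 2.33, 8.65 and 2.24 T>C units in IBET151-VHL, 9.38, 62.5 and 24.4 in JQ1-VHL, 45.0, 170.3 and 77.0 in JQ1 and 133 and 151 in IBET151 nuclei, against 133, 361 and 105 in DMSO nuclei. IBET151-VHL and JQ1-VHL lay below DMSO without overlap, and IBET151-VHL below JQ1-VHL. The difference from DMSO was -5.20 ± 0.76 (SE, adjusted p = 2.53e-10) in IBET151-VHL, 36.7-fold lower, and -2.75 ± 0.76 (SE, adjusted p = 0.00173) in JQ1-VHL. As shares of the gene's reads the values were 0.182%, 0.152% and 0.0316% in IBET151-VHL and 0.498%, 1.00% and 0.288% in JQ1-VHL, against 5.61%, 4.80% and 0.719% in DMSO. SRSF9 followed the same course, with 9.38, 60.6 and 48.9 T>C units in JQ1-VHL and 3.88, 8.65 and 4.48 in IBET151-VHL, against 134, 309.6 and 174 in DMSO, and differences of -2.61 ± 0.76 (SE, adjusted p = 0.00257) and -4.93 ± 0.76 (SE, adjusted p = 1.15e-09). Pooled, 9 T>C reads of SRSF1 and 12 of SRSF9 were left in IBET151-VHL nuclei, 0.0400 (95% interval 0.0182 to 0.0767) and 0.0457 (95% interval 0.0234 to 0.0807) times the DMSO share.

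At the other end stood SRSF2, the speckle protein. It had 229.8, 763 and 873 T>C units in JQ1-VHL and 244, 500.0 and 441 in IBET151-VHL, 766, 1750.2 and 899 in JQ1 and 1601 and 1599 in IBET151, against 854, 2068 and 705 in DMSO nuclei. The JQ1-VHL libraries overlapped DMSO and the IBET151-VHL libraries did not. The difference was -1.51 ± 0.69 (SE, adjusted p = 0.0336) in IBET151-VHL and -1.01 ± 0.69 (SE, adjusted p = 0.176) in JQ1-VHL, which is 1.61 and 0.92 above the median of all genes. SRSF10 was next, at -2.37 ± 0.68 (SE, adjusted p = 7.48e-04) in IBET151-VHL and -1.22 ± 0.68 (SE, adjusted p = 0.0967) in JQ1-VHL. Under the ERCC scaling SRSF3, SRSF6, SRSF7 and SRSF11 fell by 2.62 to 2.80 in IBET151-VHL, SRSF5 by 3.34 and SRSF4 by 3.81.

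Under median-ratio scaling the sign of the difference turned for 6 of 10 members in IBET151-VHL and 4 in JQ1-VHL, while in T>C share, which does not depend on the scaling between libraries, all 10 lay below 0 in both. Median-ratio scaling moved the median of all genes to -0.54 in IBET151-VHL and -0.29 in JQ1-VHL. Under it SRSF1 (-2.48), SRSF4 and SRSF9 fell in IBET151-VHL, SRSF2 rose there (1.50, adjusted p = 1.64e-04) and in JQ1-VHL (0.76, adjusted p = 0.0393), and the other members were not called, with SRSF3, SRSF6, SRSF7, SRSF10 and SRSF11 above 0 and SRSF5 below 0 in IBET151-VHL. Over the alternatives the adjusted p of SRSF2 ran from 3.14e-06 to 0.204 in IBET151-VHL and from 2.69e-04 to 0.721 in JQ1-VHL. Over all genes, 1673 rose and 3327 fell in IBET151-VHL under that scaling (13.9% and 27.6%), against 132 and 10116 under the ERCC scaling, and in JQ1-VHL 6.04% rose and 8.31% fell.

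**Figure D4:**
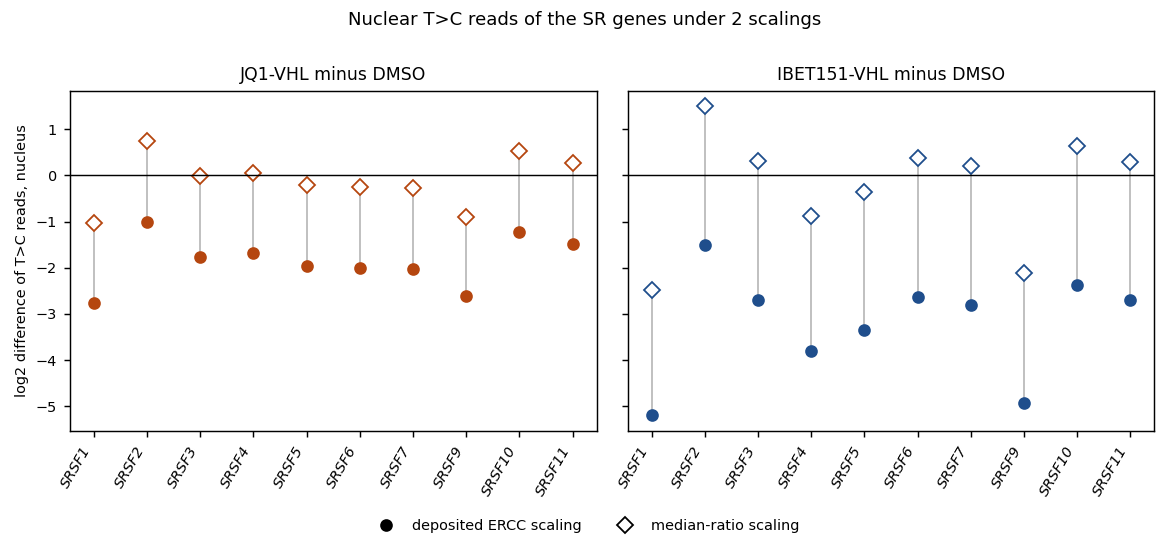
Log2 differences of nuclear T>C reads from DMSO for the 10 SR genes in JQ1-VHL and IBET151-VHL, with circles for the deposited ERCC scaling and diamonds for median-ratio scaling of the same reads. All circles lie below 0, whereas diamonds lie on both sides of it, with SRSF1 and SRSF9 lowest and SRSF2 highest in both panels.

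In the T>C share of their own reads, 9 members fell in IBET151-VHL nuclei (not SRSF2, at -1.33 ± 0.63 (SE, adjusted p = 0.0575)) and 3 in JQ1-VHL nuclei (SRSF1, SRSF5 and SRSF9), where 70.4% and 21.9% of 12046 genes fell. In JQ1 and IBET151 limma called 0 members, 0 at an unadjusted p under 0.05, with 0.0581% and 0.0415% of all genes. The members' median share difference was -2.23 and -1.19 in the VHL compounds, beside -2.41 and -1.43 over all genes. The JQ1-VHL share count turned on DMSO replicate 3: without DMSO replicate 3, 9 members were called in JQ1-VHL, without numbers 963 to 973 (a choice made after seeing the data) 10, and without any other library of the 2 groups 0 or 1. For fits with libraries left out, here and elsewhere, the share of all genes called is not given. Such counts are therefore not set against a background and are no result about the members alone. The members' median in JQ1-VHL was -2.06 within numbers 927 to 937 and -1.79 within 939 to 949. That in IBET151-VHL was -2.43 and -2.80. For JQ1 the 3 runs gave -0.16, -0.16 and -0.018, and for IBET151 the 1 shared run gave 0.014.

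**Figure D5:**
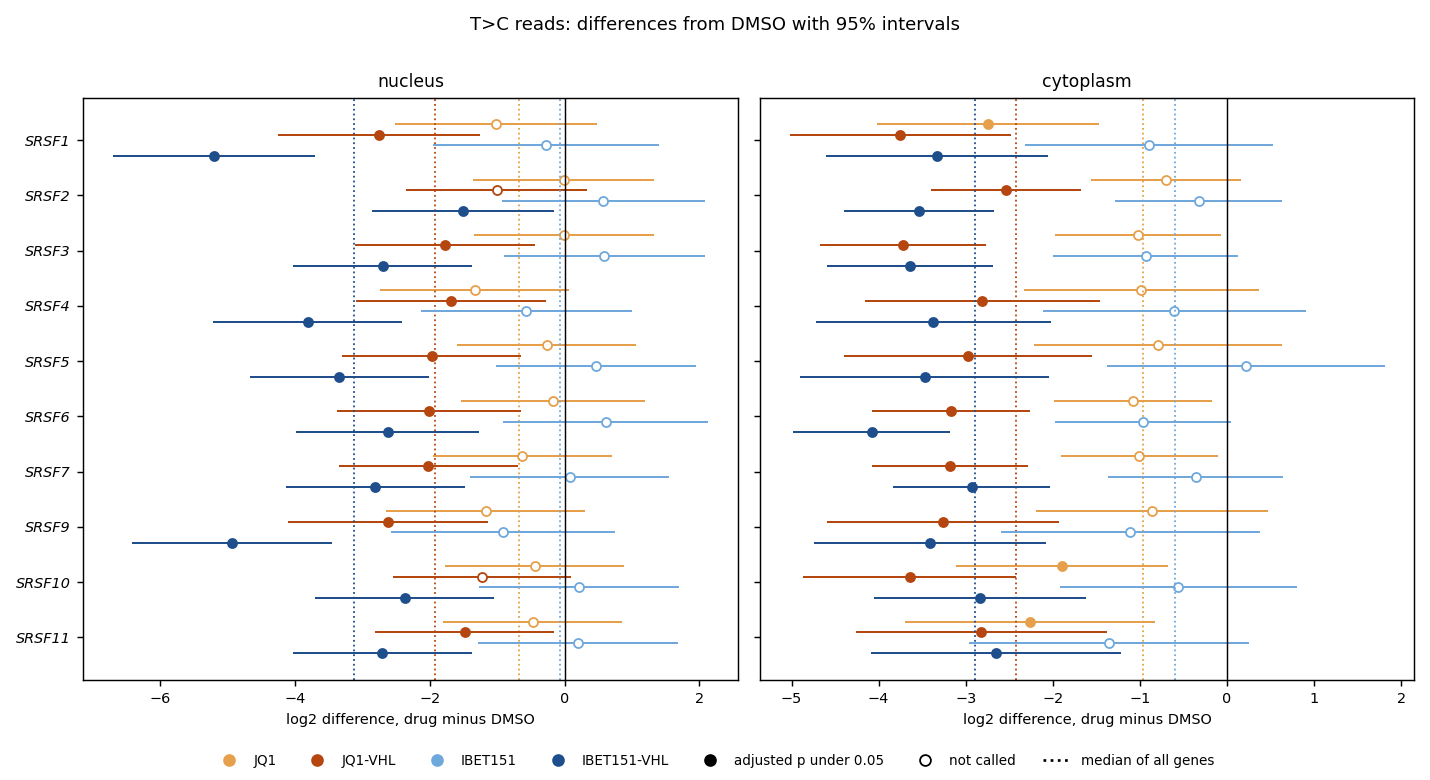
Log2 differences of T>C reads from DMSO for each SR gene and drug, with 95% intervals, in the nucleus and the cytoplasm under the deposited ERCC scaling, filled where the adjusted p was under 0.05, dotted lines at the median of all genes. Points of JQ1-VHL and IBET151-VHL lie below 0 in both fractions, and those of JQ1 and IBET151 are open in the nucleus. Under median-ratio scaling the nuclear points of SRSF2 lie above 0.

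The compounds were set against each other at 1 time, with doses unknown, in 4 pairs per fraction and readout. In the cytoplasm the SR genes had fewer T>C reads in the VHL compounds than in their parents, under the ERCC scaling. T>C reads of 8 members fell in JQ1-VHL against JQ1 (not SRSF1 and SRSF11) and of 9 in IBET151-VHL against IBET151 (not SRSF11), with 46.5% and 69.1% of all genes, and members' medians of -1.96 and -2.64, whereas under median-ratio scaling 0 members were called in either pair and 2.84% and 10.7% of all genes fell. In T>C share 7 and 9 members fell, with 36.6% and 63.6% of all. SRSF1, SRSF4, SRSF5, SRSF9, SRSF10 and SRSF11 held at most 4.53 T>C units in the VHL libraries. They passed the minimum of 5 units only through other libraries, so they could be called lower here but hardly higher. With a minimum 5 times higher, only SRSF2, SRSF3, SRSF6, SRSF7 and SRSF10 were tested, and all 5 fell in T>C reads in each pair. SRSF3 showed the step with 16.1, 4.53 and 10.4 T>C units in JQ1-VHL, against 63.0, 65.9 and 67.7 in JQ1, a difference of -2.70 ± 0.47 (SE, adjusted p = 7.02e-05). Without JQ1 replicate 2, 5 members were called in T>C reads and 4 in T>C share.

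In the nucleus all 10 members fell in IBET151-VHL against IBET151 in T>C reads (81.4% of all genes, members' median -3.23), except that under median-ratio scaling, where 9.85% of all genes fell and 5.73% rose, only SRSF1 fell and SRSF2 rose (0.94, adjusted p = 0.0251, over the alternatives 8.65e-05 to 0.0623). All 10 fell also in T>C share (60.6%), the share count being 0 without IBET151 replicate 1, which leaves a single IBET151 library. JQ1-VHL against JQ1 gave 0 calls in T>C reads (13.0% of all) and in T>C share (0.996%), with medians of -1.42 and -1.33, 5 and 6 members at an unadjusted p under 0.05, 0 calls by edgeR and 1 by DESeq2 in T>C reads (SRSF3). Without JQ1-VHL replicate 2 or 3, 4 or 2 members were called in T>C reads. The share count turned on JQ1 replicate 3, 1 of the libraries with a low nuclear T>C share: without it 9 members fell in T>C share, and without numbers 963 to 973 all 10. The 95% interval for T>C reads of SRSF3 was -3.09 to -0.43.

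The VHL compounds differed from each other in nuclear T>C reads of 3 members, higher in JQ1-VHL, where 11.0% of all genes were. JQ1-VHL minus IBET151-VHL was 2.44 ± 0.76 (SE, adjusted p = 0.0245) for SRSF1, 2.32 ± 0.76 (SE, adjusted p = 0.0314) for SRSF9 and 2.12 ± 0.72 (SE, adjusted p = 0.0372) for SRSF4, each with no overlap of the groups' libraries, and of these SRSF4 alone passed under median-ratio scaling. These calls were made in 12, 11 and 12 of 19 alternatives, and 0 members were called without JQ1-VHL replicate 2 or 3 or without IBET151-VHL replicate 1 or 3, and 8 without JQ1-VHL replicate 1. In T>C share 0 members were called, 3 at an unadjusted p under 0.05 (1.54% of all genes), and 5 without numbers 963 to 973. In the cytoplasm 0 members differed in T>C reads (3.03% of all, 2 at an unadjusted p under 0.05) or in T>C share (5.57%, 2), where 1 was called without JQ1-VHL replicate 1. The unadjusted 95% interval was 0.0066 to 1.82 for SRSF6 and -1.04 to 0.87 for SRSF3. IBET151 minus JQ1 gave 0 calls among the members and over all genes (0% in each fraction and readout), 1 member (SRSF1, cytoplasmic T>C reads) at an unadjusted p under 0.05, and members' medians of 0.51 and 0.69 in cytoplasmic and nuclear T>C reads.

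In all reads no pair of compounds differed in a member by the main limma fit, edgeR or DESeq2. SRSF5 in JQ1-VHL against JQ1, with 5184, 7098 and 6182 units in JQ1-VHL cytoplasm, against 8653, 9899.8 and 7409 in JQ1 cytoplasm, was at -0.49 ± 0.18 (SE, adjusted p = 0.199), the only member at an unadjusted p under 0.05. Over all genes 4.18% and 7.87% fell in the cytoplasm in JQ1-VHL and IBET151-VHL against their parents and 0.166% and 0.506% in the nucleus, and 0.0160% and 0% were higher in JQ1-VHL than in IBET151-VHL.

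The title of the series asks how export factors and nuclear speckles hold new transcripts when transcription is briefly blocked, so nuclear and cytoplasmic effects were compared. In DMSO, T>C reads of all 10 members were higher in the nucleus, by 2.98 (SRSF3) to 6.15 (SRSF5), under the ERCC scaling, as were 93.6% of 12067 genes, and their T>C share was higher in 10 of 10 too (90.1% of 6299 genes). SRSF5 had 9.56%, 9.46% and 2.13% T>C reads in DMSO nuclei, against 0.0877%, 0.104% and 0.251% in DMSO cytoplasm. Under median-ratio scaling 2 members were higher in T>C reads of the nucleus, with 18.0% of all genes, and SRSF3 was at -0.33 without passing.

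The drug effect in the nucleus minus that in the cytoplasm passed for 0 of 10 members in any drug in the main limma fit, in T>C reads and in T>C share. In T>C reads the share of genes with a smaller fall, or a larger rise, in the nucleus was 0.729% in JQ1-VHL, 1.57% in IBET151-VHL, 0% in JQ1 and 0.00829% in IBET151, and that with a larger fall, or a smaller rise, there was 4.96% in JQ1-VHL, 23.7% in IBET151-VHL, 0.191% in JQ1 and 0.0912% in IBET151. In T>C share, a comparison added after seeing the data, it was for the first 0.191%, 2.95%, 0% and 0%, and for the second 0%, 0.175%, 0% and 0%. The shares in T>C reads are over 12067 genes. Of the 6300 that also passed the cytoplasmic filter, as all 10 members did, 47 in JQ1-VHL and 138 in IBET151-VHL were of the first kind. Of the second kind were 18 and 460, and in the parents 0 passed either way. The members' medians in T>C reads were 1.16 in JQ1-VHL, 0.13 in IBET151-VHL, 0.80 in JQ1 and 0.70 in IBET151, beside 0.47, -0.39, 0.32 and 0.55 over the 6300 genes that also passed the cytoplasmic filter. In JQ1-VHL all 10 members were positive, and SRSF10 had 2.42 ± 0.88 (SE, adjusted p = 0.0875) and SRSF3 1.95 ± 0.83 (SE, adjusted p = 0.149). At an unadjusted p under 0.05, 2 members were found in JQ1-VHL, 1 in IBET151-VHL and 0 in the parents, and edgeR and DESeq2 called 0. Without nuclear JQ1-VHL replicate 1, 3 members were called in JQ1-VHL, and without nuclear IBET151-VHL replicate 1 or nuclear DMSO replicate 2, 1 in IBET151-VHL. In IBET151-VHL the ends of the members' range, neither of which passed in the main fit, were SRSF2 at 2.03 ± 0.80 (SE, adjusted p = 0.0516) and SRSF1 at -1.87 ± 0.98 (SE, adjusted p = 0.150), whereas in T>C share SRSF2 was at 2.56 ± 0.81 (SE, adjusted p = 0.0637) and the lowest member at -0.061. Other limma fits of T>C reads called SRSF2 there. Its adjusted p was 0.0218 with median-ratio scaling, 0.0190 with the replicate block and 0.00796 with the block of library number runs. With weights per library it was 0.00543, and with only the groups compared 0.0401. Under median-ratio scaling 459 of 12067 genes passed in that direction. With a pseudocount of 5, SRSF1 passed the other way (-2.46, adjusted p = 0.00326), as did SRSF4 and SRSF9. In T>C share the medians were 1.90 in JQ1-VHL, 1.23 in IBET151-VHL, 0.86 in JQ1 and 0.77 in IBET151, beside 1.21, 0.79, 0.69 and 0.52 over all genes, with 5, 3, 2 and 0 members at an unadjusted p under 0.05. SRSF10 was at 3.28 ± 0.93 (SE, adjusted p = 0.0907) in JQ1-VHL. In share, 1 member was called in JQ1-VHL without its cytoplasmic replicate 2 or 3, and 1 in IBET151-VHL without its nuclear replicate 3 or nuclear DMSO replicate 1 or 2. With the block of library number runs SRSF10 passed in JQ1-VHL in share (adjusted p = 0.0325) and in T>C reads (0.0178). SRSF2 passed with it in IBET151-VHL in share (0.0262). In all reads the main limma fit, edgeR and DESeq2 called 0 members, with 0 at an unadjusted p under 0.05.

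Other genes of the splicing machinery were set beside the SR genes, from lists drawn up with earlier results known. In all cytoplasmic reads 15.4% of all genes tested fell in IBET151-VHL, 12.5% in JQ1-VHL, 4.00% in JQ1 and 1.62% in IBET151. Of SR kinases and importin genes 3 of 9 fell in IBET151-VHL and 3 of 9 in JQ1-VHL, with medians of -0.41 and -0.35. Genes given below with values had the smallest p of their list. CLK4, a kinase that phosphorylates SR proteins, was at -1.29 ± 0.21 (SE, adjusted p = 4.26e-04) in IBET151-VHL and -0.73 ± 0.21 (SE, adjusted p = 0.0291) in JQ1-VHL, and DYRK1A, a speckle-associated kinase, at -1.14 ± 0.22 (SE, adjusted p = 0.00200) and -0.89 ± 0.22 (SE, adjusted p = 0.0144). PRPF4B, which phosphorylates spliceosomal proteins, was at -0.75 ± 0.23 (SE, adjusted p = 0.0359) in IBET151-VHL. Of SR-related splicing proteins 3 of 25 fell in IBET151-VHL and 3 of 25 in JQ1-VHL. CCNL2, a speckle cyclin, was at -1.23 ± 0.19 (SE, adjusted p = 3.08e-04) and -1.10 ± 0.19 (SE, adjusted p = 0.00121), and RBM39, a U2AF-like factor, at -1.01 ± 0.19 (SE, adjusted p = 0.00137) and -1.01 ± 0.19 (SE, adjusted p = 0.00211). Of hnRNP genes 1 of 27 fell in IBET151-VHL (PTBP2) and 1 of 27 in JQ1-VHL (HNRNPDL), with medians near 0 (0.06 and 0.035). PTBP2, a neuronal form of the polypyrimidine tract protein, was at -1.07 ± 0.30 (SE, adjusted p = 0.0237) in IBET151-VHL, and HNRNPDL, an hnRNP D-like protein, at -0.49 ± 0.15 (SE, adjusted p = 0.0434) in JQ1-VHL. TRA2A and TRA2B, the SR-like regulators, were not called. In JQ1 2 of 25 SR-related genes, 2 of 9 kinases and importin genes and 1 of 27 hnRNP genes fell, and in IBET151 2 of 25, 0 of 9 and 0 of 27. 0 genes of these lists rose.

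In cytoplasmic T>C reads 22 of 24 SR-related genes, 7 of 8 kinases and importin genes, 24 of 25 hnRNP genes and 2 of 2 TRA2 genes fell in IBET151-VHL, with medians of -3.11, -2.36, -3.40 and -3.04, where all 10 SR genes fell with a median of -3.39. In JQ1-VHL 22 of 24, 5 of 8, 24 of 25 and 2 of 2 fell. Over all genes 88.3% fell in IBET151-VHL and 82.8% in JQ1-VHL. In nuclear T>C reads of IBET151-VHL the counts were 25 of 25, 8 of 9, 24 of 27 and 2 of 2, with 83.9% of all genes. In JQ1-VHL nuclei they were 11 of 25, 4 of 9, 15 of 27 and 0 of 2, with 60.5% of all genes. The SR genes thus fell, under the ERCC scaling, with most genes tested.

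Across libraries the members varied together, more closely in the nucleus than in the cytoplasm. The correlation of a member's log2 level with the mean of the other 9, over 14 libraries that share their scaling, ran from 0.76 (SRSF11) to 0.99 (SRSF3) in the nucleus and from 0.32 (SRSF1) to 0.96 (SRSF10) in the cytoplasm. The genes outside the family most like the members' mean over 28 libraries, centred within each fraction, were VTA1 (Pearson's r 0.990), PRPF38A (0.989) and PRPSAP1 (0.989). The median over 10094 genes compared was 0.879, all genes of a library sharing its ERCC factor, and within the cytoplasm alone the 3 genes had r of 0.92, 0.90 and 0.91.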

How the data were processed

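QuantSeq libraries read the 3′ ends of polyA RNA in single reads of 100 bases. The human cells carried an admixture of 10% Drosophila S2 cells, and ERCC RNA was added in proportion to RNA mass, per the labels' protocols. Per the submitters' processing notes, Trimmomatic 0.39, bcl2fastq, HISAT2, HTSeq and DESeq2 were used, with hg19 (GRCh37) and dm3; their order, and how T>C reads were called, are not given in the sources used here. The values are signal values as deposited by the authors: read counts per gene, scaled by ERCC factors. Whole reads (counts) were recovered from the deposited steps for 100.0% of 461496 values of all reads and 364812 values of T>C reads, within a tolerance of 0.001 reads. Replicates of each group differed beyond sampling noise.

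Genes reaching 10 units of all reads, or 5 of T>C reads, in at least 2 libraries were tested with limma 3.58.1 (trend, R 4.3.3) on log2(value + 1), within each fraction over 14 libraries and, for contrasts of the fractions, over 28. The T>C share was tested as log2((T>C reads + 0.5)/(other reads + 0.5)). p-values were adjusted over all genes by Benjamini-Hochberg, and called means an adjusted p under 0.05. The fits were tested on simulated data. Alternatives were the pseudocount or offset, filters, median-ratio scaling, library weights, blocks, fewer groups, each library left out, and edgeR 4.0.16 and DESeq2 1.42.0 on recovered reads. Leaving out numbers 963 to 973, and the share fit over both fractions, were added after seeing the data. The edgeR and DESeq2 fits kept the authors' ERCC scaling too, so they are no check on it. Ratios of pooled shares carry exact intervals. Figures were drawn with matplotlib 3.10.9.

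The members were taken by symbol. They and the lists of related genes were chosen with earlier results of these data known. All members could be named, with values for those called or at the ends of the range, and from each related list the 2 genes with the smallest p in cytoplasmic reads of each VHL compound. The 3 genes most alike were those with the highest Pearson's r to the members' mean. Same-numbered libraries correlated in their deviations in all reads by 0.159 or more in every pair of the groups with 3 replicates within a fraction, and between the fractions by 0.105 or more in DMSO but down to 0.0482 in the drugs, although no label explains the replicate numbers. Doses were not given, and gene coordinates of the authors' build were not used.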

Additional observations from a re-analysis of the deposited data

How the results depend on the processing

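The number of SR genes called, out of 10, was recomputed for 63 comparisons. Each count adds members that rose to members that fell. Under median-ratio scaling, without and with the replicate block, 2 counts turned direction. DMSO nucleus over cytoplasm in all reads went from members higher to members lower. JQ1-VHL in nuclear T>C reads went from members lower to members higher. Shares over all genes are not given beside these counts, so they are not set against a background. Leaving out 1 library kept each count within 1.5 times of its main value, except for the following ranges. The count ran in cytoplasmic reads 1 to 3 for JQ1-VHL, 1 to 4 for IBET151-VHL and 0 to 1 for JQ1, in all reads over both fractions 0 to 4 for DMSO nucleus over cytoplasm, in cytoplasmic T>C reads 1 to 3 for JQ1 and 5 to 8 for JQ1-VHL over JQ1, in nuclear T>C reads 2 to 9 for JQ1-VHL, 0 to 4 for JQ1-VHL over JQ1 and 0 to 8 for JQ1-VHL over IBET151-VHL, in T>C reads over both fractions 0 to 3 for the JQ1-VHL fraction effect and 0 to 1 for the IBET151-VHL fraction effect, in cytoplasmic T>C share 0 to 1 for JQ1, 4 to 8 for JQ1-VHL over JQ1 and 0 to 1 for JQ1-VHL over IBET151-VHL, in nuclear T>C share 0 to 9 for JQ1-VHL, 0 to 9 for JQ1-VHL over JQ1 and 0 to 10 for IBET151-VHL over IBET151 and in T>C share over both fractions 0 to 1 for the JQ1-VHL fraction effect and 0 to 1 for the IBET151-VHL fraction effect.

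With median-ratio in place of ERCC scaling the count was, in cytoplasmic reads 1 for JQ1-VHL and 1 for IBET151, in nuclear reads 1 for JQ1 and 1 for IBET151, in all reads over both fractions 4 for DMSO nucleus over cytoplasm, in cytoplasmic T>C reads 3 for JQ1-VHL, 1 for IBET151-VHL, 0 for JQ1, 0 for JQ1-VHL over JQ1 and 0 for IBET151-VHL over IBET151, in nuclear T>C reads 1 for JQ1-VHL, 4 for IBET151-VHL, 2 for IBET151-VHL over IBET151 and 1 for JQ1-VHL over IBET151-VHL and in T>C reads over both fractions 2 for DMSO nucleus over cytoplasm and 1 for the IBET151-VHL fraction effect. With the replicate block the count was, in cytoplasmic reads 4 for IBET151-VHL, 2 for JQ1 and 1 for IBET151, in nuclear reads 3 for JQ1-VHL, 7 for IBET151-VHL, 1 for JQ1, 9 for IBET151-VHL over IBET151 and 6 for IBET151 over JQ1, in all reads over both fractions 4 for DMSO nucleus over cytoplasm, in nuclear T>C reads 5 for JQ1-VHL over JQ1, in T>C reads over both fractions 1 for the JQ1-VHL fraction effect and 1 for the IBET151-VHL fraction effect, in nuclear T>C share 7 for JQ1-VHL, 6 for JQ1-VHL over JQ1 and 3 for JQ1-VHL over IBET151-VHL and in T>C share over both fractions 1 for the IBET151-VHL fraction effect. With the replicate block together with median-ratio scaling the count was, in cytoplasmic reads 3 for IBET151-VHL and 3 for IBET151, in nuclear reads 1 for JQ1-VHL, 3 for IBET151-VHL, 1 for JQ1, 1 for IBET151 and 1 for JQ1-VHL over JQ1, in all reads over both fractions 5 for DMSO nucleus over cytoplasm, in cytoplasmic T>C reads 3 for JQ1-VHL, 1 for IBET151-VHL, 0 for JQ1, 0 for JQ1-VHL over JQ1 and 0 for IBET151-VHL over IBET151, in nuclear T>C reads 2 for JQ1-VHL, 5 for IBET151-VHL and 4 for IBET151-VHL over IBET151 and in T>C reads over both fractions 2 for DMSO nucleus over cytoplasm and 1 for the IBET151-VHL fraction effect. With a block of library number runs the count was, in cytoplasmic reads 4 for JQ1-VHL, 4 for IBET151-VHL, 3 for JQ1, 3 for IBET151, 1 for JQ1-VHL over JQ1 and 1 for IBET151-VHL over IBET151, in nuclear reads 5 for JQ1-VHL, 9 for IBET151-VHL, 5 for JQ1, 3 for IBET151, 1 for JQ1-VHL over JQ1 and 2 for IBET151-VHL over IBET151, in all reads over both fractions 4 for DMSO nucleus over cytoplasm, in nuclear T>C reads 1 for JQ1, 9 for JQ1-VHL over JQ1 and 8 for JQ1-VHL over IBET151-VHL, in T>C reads over both fractions 1 for the JQ1-VHL fraction effect and 1 for the IBET151-VHL fraction effect, in nuclear T>C share 10 for JQ1-VHL, 10 for JQ1-VHL over JQ1 and 7 for JQ1-VHL over IBET151-VHL and in T>C share over both fractions 1 for the JQ1-VHL fraction effect and 1 for the IBET151-VHL fraction effect. With weights per library the count was, in cytoplasmic reads 1 for JQ1-VHL, 0 for JQ1 and 1 for JQ1-VHL over JQ1, in nuclear reads 3 for JQ1-VHL, 5 for IBET151-VHL, 8 for JQ1, 1 for IBET151, 3 for JQ1-VHL over JQ1 and 1 for IBET151-VHL over IBET151, in all reads over both fractions 8 for DMSO nucleus over cytoplasm, 2 for the IBET151-VHL fraction effect and 1 for the JQ1 fraction effect, in nuclear T>C reads 4 for JQ1, 1 for IBET151, 9 for JQ1-VHL over IBET151-VHL and 3 for IBET151 over JQ1, in T>C reads over both fractions 5 for the JQ1-VHL fraction effect and 1 for the IBET151-VHL fraction effect, in cytoplasmic T>C share 2 for JQ1, in nuclear T>C share 10 for JQ1-VHL, 1 for IBET151, 10 for JQ1-VHL over JQ1 and 4 for JQ1-VHL over IBET151-VHL and in T>C share over both fractions 1 for the JQ1-VHL fraction effect and 1 for the IBET151-VHL fraction effect. With only the groups compared the count was, in cytoplasmic reads 1 for JQ1-VHL, 0 for IBET151-VHL and 0 for JQ1, in all reads over both fractions 0 for DMSO nucleus over cytoplasm, in cytoplasmic T>C reads 6 for JQ1, in nuclear T>C reads 3 for JQ1-VHL and 0 for JQ1-VHL over IBET151-VHL, in T>C reads over both fractions 1 for the IBET151-VHL fraction effect, in cytoplasmic T>C share 3 for JQ1 and in nuclear T>C share 5 for JQ1-VHL over IBET151-VHL. With a minimum value 5 times higher the count was, in cytoplasmic T>C reads 5 for JQ1-VHL, 5 for IBET151-VHL, 1 for JQ1, 5 for JQ1-VHL over JQ1 and 5 for IBET151-VHL over IBET151, in cytoplasmic T>C share 5 for JQ1-VHL, 5 for IBET151-VHL, 0 for JQ1 and 5 for IBET151-VHL over IBET151 and in T>C share over both fractions 5 for DMSO nucleus over cytoplasm, 1 for the JQ1-VHL fraction effect and 1 for the IBET151-VHL fraction effect. At this higher minimum only SRSF2, SRSF3, SRSF6, SRSF7 and SRSF10 were still tested in cytoplasmic T>C reads and share and in share over both fractions. The counts just given are out of these members, not out of 10. Without the filter on low values the count was, in cytoplasmic reads 1 for JQ1-VHL and in cytoplasmic T>C share 0 for JQ1. With a pseudocount of 0.5 the count was, in all reads over both fractions 2 for DMSO nucleus over cytoplasm and in cytoplasmic T>C reads 1 for JQ1. With a pseudocount of 5 the count was, in cytoplasmic T>C reads 6 for JQ1, in nuclear T>C reads 0 for JQ1-VHL over IBET151-VHL and in T>C reads over both fractions 3 for the IBET151-VHL fraction effect. With an offset of 0.1 in the share the count was, in cytoplasmic T>C share 0 for JQ1 and in nuclear T>C share 1 for JQ1-VHL. With an offset of 2 the count was, in cytoplasmic T>C share 2 for JQ1. With edgeR on the recovered reads the count was, in cytoplasmic reads 2 for IBET151-VHL and in all reads over both fractions 3 for DMSO nucleus over cytoplasm. With DESeq2 on them the count was, in cytoplasmic reads 2 for IBET151-VHL, in all reads over both fractions 4 for DMSO nucleus over cytoplasm and in nuclear T>C reads 1 for JQ1-VHL over JQ1. Without library numbers 963 to 973 the count was, in cytoplasmic reads 4 for JQ1-VHL and 4 for IBET151-VHL, in all reads over both fractions 0 for DMSO nucleus over cytoplasm, in cytoplasmic T>C reads 0 for JQ1, in cytoplasmic T>C share 0 for JQ1 and in nuclear T>C share 10 for JQ1-VHL, 10 for JQ1-VHL over JQ1 and 5 for JQ1-VHL over IBET151-VHL. The cause of these shifts was not tested. Same-numbered libraries were taken as paired where every pair correlated above 0.1, which held within each fraction for all reads of the groups with 3 replicates, between the fractions for all reads of DMSO alone, and in the nucleus for T>C reads and share of JQ1 and DMSO. In the other comparisons same-numbered libraries share only a number. This holds for IBET151, whose replicate 1 (numbers 942 and 948) lies among the replicates 2 of the other groups. In all reads of IBET151 and JQ1 the pairs correlated by -0.22 to 0.55 in the nucleus and -0.53 to -0.069 in the cytoplasm. The replicate-block counts of comparisons with IBET151, among them the 9 and 6 in nuclear reads, thus rest on unmatched libraries and are no result. The replicate block moved no other count of members by over 1.5 times.

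Of the members' single differences under these alternatives, 6718 kept their side of the threshold, 163 were no longer called and 308 were newly called. Another 38, called in the main or the alternative fit, turned their sign, all under median-ratio scaling. Differences called in neither fit are among the 6718 even where their sign turned, and they are left out of the signs named next. With median-ratio scaling alone the sign turned in all reads over both fractions of DMSO nucleus over cytoplasm SRSF1 (-1.03) and SRSF2 (-0.73), in cytoplasmic T>C reads of IBET151-VHL over IBET151 SRSF10 (0.11), in nuclear T>C reads of JQ1-VHL SRSF2 (0.76), SRSF4 (0.061) and SRSF11 (0.28), in nuclear T>C reads of IBET151-VHL SRSF2 (1.50), SRSF3 (0.30), SRSF6 (0.38), SRSF7 (0.19), SRSF10 (0.63) and SRSF11 (0.29), in nuclear T>C reads of IBET151-VHL over IBET151 SRSF2 (0.94), SRSF7 (0.13), SRSF10 (0.43) and SRSF11 (0.095) and in T>C reads over both fractions of DMSO nucleus over cytoplasm SRSF3 (-0.33). With the replicate block added the sign turned in nuclear reads of IBET151-VHL SRSF11 (0.60), in all reads over both fractions of DMSO nucleus over cytoplasm SRSF1 (-1.03), SRSF2 (-0.73) and SRSF7 (-0.48), in cytoplasmic T>C reads of IBET151-VHL over IBET151 SRSF10 (0.012), in nuclear T>C reads of JQ1-VHL SRSF2 (0.76), SRSF4 (0.061), SRSF10 (0.54) and SRSF11 (0.28), in nuclear T>C reads of IBET151-VHL SRSF2 (1.50), SRSF3 (0.30), SRSF6 (0.38), SRSF7 (0.19), SRSF10 (0.63) and SRSF11 (0.29), in nuclear T>C reads of IBET151-VHL over IBET151 SRSF2 (0.91), SRSF7 (0.14), SRSF10 (0.58) and SRSF11 (0.27), in nuclear T>C reads of JQ1-VHL over IBET151-VHL SRSF2 (-0.74) and in T>C reads over both fractions of DMSO nucleus over cytoplasm SRSF3 (-0.33). Depth limits the cytoplasmic T>C values: SRSF1, SRSF4, SRSF5, SRSF9, SRSF10 and SRSF11 had 0 T>C reads in some libraries of the VHL compounds, and SRSF11 in 1 of JQ1.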
